A study of Mus musculus with 16 samples.

Results

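Saline-injected lungs without IL-31RA (KO-Sal) were compared with saline-injected wildtype lungs (WT-Sal), so that the genotypes were set against each other without bleomycin. The comparison used 8 of the 16 RNA-seq samples, chosen by their labels alone: WT-Sal replicates 1, 2, 3 and 4 and KO-Sal replicates 9, 10, 11 and 12, with all 16380 listed genes. The remaining 8 samples, wildtype (WT-Bleo) and knockout (KO-Bleo) lungs after bleomycin, a DNA-breaking drug used to scar the lung, were read only beside the genes found here. All mice were of C57BL/6 background and 10 to 18 weeks old, and the wildtype mice were littermates of the knockouts. The study used both sexes, and the sample titles do not give the sex behind each library. A difference in sex between the groups was not tested. The knockout allele lacks exons 4, 5 and 6 of Il31ra. Saline (50 µl) was injected into the skin on 5 days per week for 4 weeks and whole lungs were collected on day 28. Labels and methods do not say whether each library is a separate mouse, so p-values measure the spread between libraries.

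IL-31RA is the specific chain of the receptor for interleukin-31, a cytokine made mainly by activated type 2 helper T cells and best known for itch. It pairs with the oncostatin M receptor (OSMR) and signals through JAK kinases and STAT transcription factors. The comparison asks what differs between the genotypes before injury, in RNA from the whole organ, where alveolar, airway, vascular, stromal and blood cells are mixed. Fewer cells of a type and less RNA per cell cannot be told apart in such samples.

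Values are RPKM, reads scaled to gene length and library size. Libraries held 7790575 to 23481714 reads in WT-Sal and 15538872 to 17740863 in KO-Sal. The wildtype values were stored with 15 significant digits and the knockout values with 10, so any difference in their processing cannot be told apart from genotype. The tissue was lung in all 8: the mean log2(RPKM + 1) over 15 alveolar type 2 cell markers lay between 8.60 and 8.83. Several libraries stood apart. KO-Sal 10 held adipocyte transcripts, with a mean log2 level of 4.74 over 20 adipocyte markers against 2.43 to 2.84 in the other 7 libraries. KO-Sal 9 held skeletal muscle transcripts, with a mean level of 2.69 over 9 markers against 0.66 to 0.91. WT-Sal 3 was high in neutrophil markers, at 4.87 over 13 markers against 3.24 to 3.74. KO-Sal 12 lay nearer to wildtype than the other knockouts in many genes, as described further on. Results are given with and without these libraries where it mattered.

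Il31ra, on chromosome 13 (112521931 to 112580732, GRCm38.p6), was barely expressed and lower in every knockout library. Its level was 0.175, 0.114, 0.197 and 0.253 RPKM in WT-Sal 1 to 4 and 0.0461, 0.0320, 0.0351 and 0.0480 in KO-Sal 9 to 12. These are 5, 6, 17 and 9 reads against 3, 2, 2 and 3 reads. The groups did not overlap, and the read rate in KO-Sal was 0.222 of that in WT-Sal (10 against 37 reads, exact 95% interval 0.0985 to 0.455, counting error only). Gene-level reads do not separate the deleted exons from the rest, and the limma difference of -0.19 ± 0.05 (log2, SE) did not pass (adjusted p = 0.114). Osmr, the partner chain, was at 21.3 to 27.9 RPKM in WT-Sal and 19.7 to 23.8 in KO-Sal, which overlap (log2 difference -0.19 ± 0.09, limma adjusted p = 0.300). Il6st, the gp130 chain shared by the rest of the IL-6 family, was at 84.0 to 100.1 and 93.2 to 98.4 RPKM (0.06 ± 0.07, limma adjusted p = 0.681). Il31 itself is not listed. Of 29 measured genes of the IL-31 receptor, IL-6 family and JAK-STAT list, 0 were called, and 4 were higher and 4 lower at an unadjusted p under 0.05, a level that 11% of all genes reached upwards and 5.19% downwards. The leading ones after Il31ra were Stat5a (0.27 ± 0.08, limma adjusted p = 0.149), a transcription factor of the pathway, and Il6ra (-0.21 ± 0.07, limma adjusted p = 0.165), the receptor chain for IL-6.

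The test called 8 genes at an adjusted p under 0.05, which is 0.0488% of the 16380 tested, 3 higher (0.0183%) and 5 lower (0.0305%) in KO-Sal. Without KO-Sal 10 the count was again 8, 3 higher (0.0183%) and 5 lower (0.0305%). At an unadjusted p under 0.05 there were 2659 genes (16.2%), 1809 higher and 850 lower. With the fold limit that the study applied, 1.5 in either direction, added to that p, there were 141 (0.861%), 101 higher and 40 lower. Libraries did not overlap between the genotypes for 1582 genes (9.66%), 1022 higher (6.24%) and 560 lower (3.42%). The median log2 difference over all genes was 0.03, and 9675 genes had a positive one. Each of the 8 called genes was without overlap.

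Erdr1 was the largest difference. It encodes erythroid differentiation regulator 1 and is listed in the reference as a transcribed pseudogene on chromosome X (170010526 to 170018797, gene ID 170942). Its level was 13.9, 10.3, 11.3 and 17.2 RPKM in WT-Sal and 1.32, 0.197, 0.144 and 0.459 in KO-Sal. The knockout mean was 0.0402 of the wildtype mean, a fall of 3.25 on the log2(RPKM + 1) scale (SE 0.22, limma adjusted p = 0.000491). In reads this was 97 to 238 against 2 to 21. Near-identical copies of this gene exist, and no source used here says how reads were shared among them. Erdr1 was called under all 16 alternatives that kept it.

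Hist1h4h, a histone H4 gene on chromosome 13 (23531044 to 23531478, gene ID 69386), rose. Its level was 0.885, 0.800, 1.47 and 0.475 RPKM in WT-Sal and 7.90, 5.94, 5.92 and 7.82 in KO-Sal, 7.60-fold higher in the mean (log2 difference 2.06 ± 0.15, limma adjusted p = 0.000491). The reads behind it were few, 2 to 15 in WT-Sal and 40 to 61 in KO-Sal. Histone H4 genes are nearly identical in sequence and their RNAs mostly lack a poly(A) tail, so this value is uncertain as to which H4 gene it measures. Rmrp, the RNA of the RNase MRP complex, which processes ribosomal and mitochondrial RNA, is another transcript without a poly(A) tail. It lies on chromosome 4 (43492785 to 43493059) and was at 7.0, 6.32, 7.90 and 6.76 RPKM in WT-Sal and 11.5, 9.82, 11.7 and 10.7 in KO-Sal. It rose by 0.58 ± 0.08 (limma adjusted p = 0.0421), on 15 to 56 reads a library, and was not called by limma-voom on whole reads (adjusted p = 0.119). Of 19 histone genes, a list added after seeing the data that includes Hist1h4h, 2 were higher and 0 lower at an unadjusted p under 0.05, beside 11% of all genes higher. Kcnh3, a voltage-gated potassium channel on chromosome 15 (99224517 to 99242818), rose from 0.537, 0.679, 0.404 and 0.461 RPKM in WT-Sal to 1.43, 1.64, 1.26 and 1.29 in KO-Sal (0.66 ± 0.08, limma adjusted p = 0.0272). Without KO-Sal 10 its adjusted p was 0.0517.

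The other called genes fell. Rras2, a RAS-related small GTPase on chromosome 7 (114046782 to 114117781), was at 45.5, 43.0, 45.2 and 42.7 RPKM in WT-Sal and 31.2, 31.4, 32.8 and 31.3 in KO-Sal. Its change was modest (log2 difference -0.47 ± 0.05, limma adjusted p = 0.00768) but the libraries of each genotype lay within 3 RPKM of each other. Crispld2, a secreted glycoprotein known in lung development and as a target of glucocorticoids, lies on chromosome 8 (119992438 to 120052794). It was at 43.4, 44.2, 46.5 and 45.5 RPKM against 29.6, 26.1, 33.5 and 28.6 (-0.60 ± 0.07, limma adjusted p = 0.0217). Mettl21e, a lysine methyltransferase of muscle on chromosome 1 (44204070 to 44218931), was at 2.18, 1.57, 1.99 and 2.01 RPKM against 0.443, 0.590, 0.688 and 0.553 (-0.90 ± 0.09, limma adjusted p = 0.00525). KO-Sal 9, the library with muscle RNA, had the lowest value. Gprc6a, a receptor for amino acids and cations on chromosome 10 (51614823 to 51631458), was at 2.25, 2.44, 2.37 and 2.46 RPKM against 0.533, 0.411, 0.428 and 1.23 (-1.06 ± 0.14, limma adjusted p = 0.0277). KO-Sal 12 was the knockout nearest to wildtype for this gene, and without KO-Sal 10 its adjusted p was 0.0527.

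**Figure D1:**
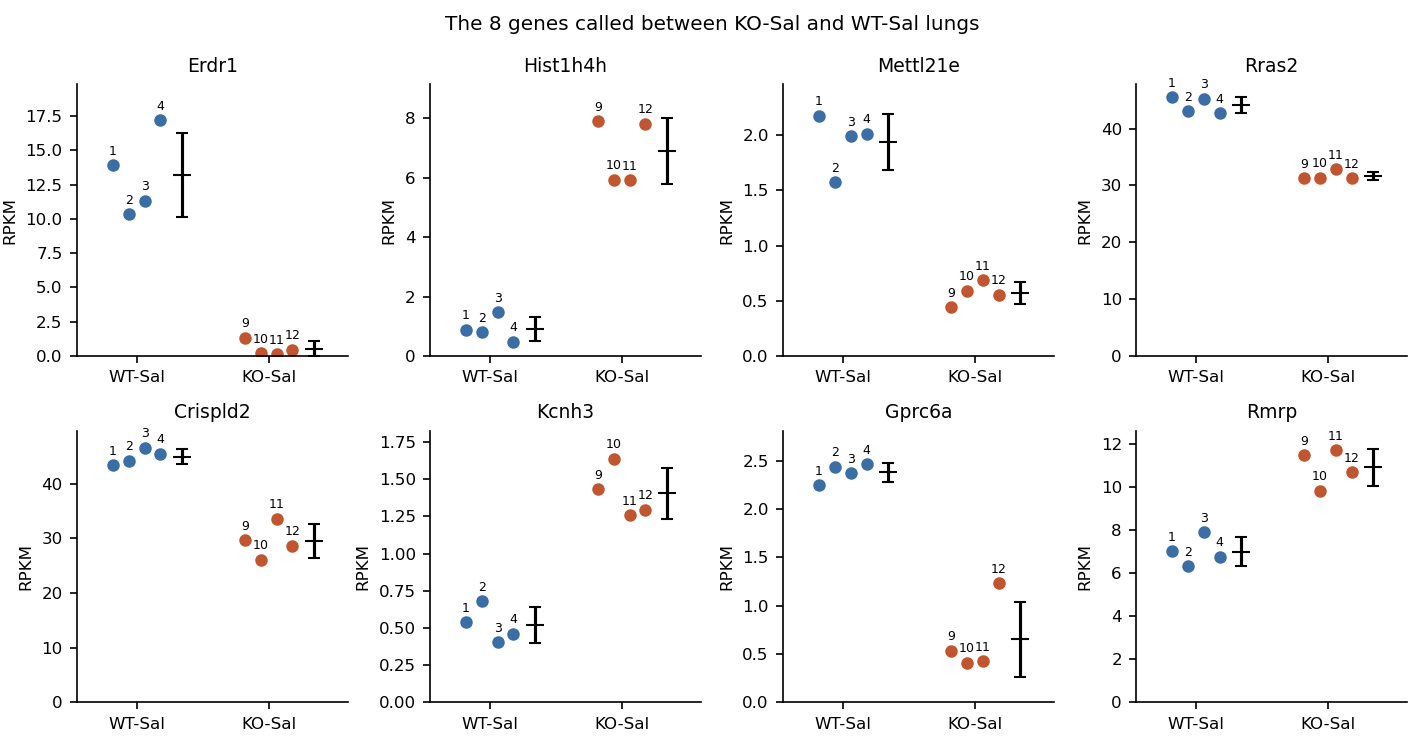
RPKM of the 8 called genes in each library (points, labelled by replicate number), with the mean and SD of 4 libraries beside each group (black). The genotypes do not overlap in any panel, and KO-Sal 12 is high only for Gprc6a, at 1.23 RPKM.

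Among single libraries, KO-Sal 12 moved the number of called genes most. Without it, limma called 722 genes (4.41%), 534 higher (3.26%) and 188 lower (1.15%), while leaving out any other single library gave 3 to 8. All 722 had the same direction with KO-Sal 12 in, and 685 of them then had an unadjusted p under 0.05. For 408 of the 722, KO-Sal 12 lay beyond the wildtype range on the side of the other knockouts, for 277 it lay within that range, and for 37 beyond it on the other side. Its Il31ra, Erdr1 and Hist1h4h levels lay with those of the other knockouts. Jchain, the joining chain of IgA and IgM made by plasma cells, is an example. It was at 5.86, 3.08, 15.4 and 3.10 RPKM in WT-Sal and 79.1, 91.6, 91.0 and 6.11 in KO-Sal. What sets KO-Sal 12 apart was not tested. Lists were counted without KO-Sal 12 after its values were seen. Leaving out the knockout nearest to wildtype favours more calls, so values without KO-Sal 12 are not separate support for a difference.

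Genes of ciliated airway cells were higher in KO-Sal. These cells carry the motile cilia that move mucus, built from dynein arms, radial spokes and tektins under the transcription factors FOXJ1 and RFX. Of 14 markers, all listed, 13 were higher and 0 lower at an unadjusted p under 0.05 (11% of all genes higher). Above every wildtype library lay 6 (6.24% of all genes), and the median log2 difference was 0.42 against 0.03 over all genes. With all 4 knockouts 0 were called by limma. Without KO-Sal 12, 12 of 14 were called, all higher (3.26% of all genes), and the median was 0.54. Cdhr3, a cadherin of ciliated cells, was at 15.8, 19.6, 17.4 and 17.1 RPKM in WT-Sal and 31.0, 31.3, 29.3 and 21.6 in KO-Sal (0.65 ± 0.11, limma adjusted p = 0.0609, and 0.00255 without KO-Sal 12). Tmem212 was at 24.5, 30.7, 29.2 and 29.1 against 46.8, 48.3, 50.5 and 33.0 RPKM (0.62 ± 0.12, limma adjusted p = 0.0684). In both, KO-Sal 12 was the lowest knockout and still above every wildtype library.

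The dynein heavy chains Dnah9 and Dnah5, which drive the beat, followed. Dnah9 was at 2.59, 3.06, 2.51 and 2.98 RPKM in WT-Sal and 5.42, 4.78, 4.13 and 3.46 in KO-Sal (0.52 ± 0.11, limma adjusted p = 0.0796). Dnah5 was at 5.84, 5.96, 5.32 and 6.15 against 8.82, 9.34, 7.33 and 6.93 RPKM (0.41 ± 0.09, limma adjusted p = 0.0815). Foxj1 was at 21.5, 28.4, 26.0 and 24.3 against 34.5, 37.5, 38.0 and 24.3 RPKM, where KO-Sal 12 lay inside the wildtype range (0.39 in the mean, limma adjusted p = 0.181, and 0.0126 without KO-Sal 12). Limma-voom, which called 0.715% of all genes, called 3 of the 14 with all libraries in. A list of 63 genes of motile cilium families (axonemal dyneins, cilia and flagella associated proteins, radial spoke proteins, tektins) was picked by name after these values were seen. It holds markers of the 14, such as Dnah5, Dnah9, Tekt1 and Tekt4, so it is not separate support. Of the 63, 45 were higher and 1 lower at an unadjusted p under 0.05 (11% of all genes higher), and 28 were above every wildtype library (6.24%). The mean level of the 14 markers was 4.18 to 4.41 (log2) in WT-Sal, 4.78 to 4.85 in KO-Sal 9, 10 and 11 and 4.43 in KO-Sal 12. Among markers of airway secretory cells, which share the bronchial surface, fewer moved: 2 of 18 were higher and 1 lower (11% and 5.19% of all genes), with a median of 0.17. The 2 higher ones differed by 0.50 and 0.42 (limma adjusted p = 0.0765 and 0.102), about as much as Dnah9 and Dnah5. Scgb1a1, the club cell secretoglobin, chosen after its values were seen, was 0.26 higher (limma adjusted p = 0.336). Without KO-Sal 10 and KO-Sal 9 together, 7 of the 14 ciliated markers stayed higher at an unadjusted p under 0.05, beside 1179 of all 16380 genes.

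The promoters of these genes were read because RFX factors bind a known sequence, the X-box. RefSeq promoters (GRCm38.p6, 250 bases before to 50 after the start) were matched for 11 of the 14. The X-box was searched on both strands as GTNNCC, any 3 bases, then GNAAC, and a half-site, which can lie inside it, as GTTGCC. The longer motif was in 1 of 11 ciliated promoters (9.09%) and in 348 of 12871 promoters of all listed genes (2.7%). The half-site was in 4 of 11 (36.4%) against 1653 of 12871 (12.8%). Among 54 promoters of the motile cilium families, which include some of the 11, 9 (16.7%) held the longer motif and 20 (37%) the half-site. A match is a string of letters, not a measured site. Shown are the member with the longer motif, which it holds at 2 places (Tekt4, chr17:25471340-25471639, plus strand), that with the smallest p (Cdhr3, chr12:33092826-33093125, minus strand) and that with half-sites on both strands (Tekt1, chr11:72361833-72362132, minus strand), each written 5′ to 3′ along the gene with the matches in capitals.
Tekt4: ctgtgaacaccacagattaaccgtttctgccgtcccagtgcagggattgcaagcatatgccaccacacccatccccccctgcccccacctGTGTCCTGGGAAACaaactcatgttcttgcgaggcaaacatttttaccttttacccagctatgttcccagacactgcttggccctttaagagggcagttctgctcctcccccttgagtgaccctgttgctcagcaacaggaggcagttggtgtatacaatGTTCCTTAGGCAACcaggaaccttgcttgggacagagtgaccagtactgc
Cdhr3: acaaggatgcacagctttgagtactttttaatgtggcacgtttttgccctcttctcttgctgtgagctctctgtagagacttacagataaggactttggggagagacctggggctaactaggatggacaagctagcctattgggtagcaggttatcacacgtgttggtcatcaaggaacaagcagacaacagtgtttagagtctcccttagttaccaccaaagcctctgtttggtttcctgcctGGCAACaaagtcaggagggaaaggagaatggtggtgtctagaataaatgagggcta
Tekt1: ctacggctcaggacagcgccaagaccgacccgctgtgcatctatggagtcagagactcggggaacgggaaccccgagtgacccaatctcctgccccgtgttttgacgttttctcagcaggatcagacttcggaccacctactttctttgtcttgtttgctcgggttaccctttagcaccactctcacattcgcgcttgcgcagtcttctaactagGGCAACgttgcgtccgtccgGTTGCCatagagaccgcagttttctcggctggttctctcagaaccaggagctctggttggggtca
Tekt4, a tektin of the cilium's microtubules, was at 3.18, 4.36, 4.31 and 4.86 RPKM in WT-Sal and 7.83, 6.86, 6.76 and 4.60 in KO-Sal. Tekt1, another tektin, was at 9.65, 10.2, 9.16 and 10.3 against 13.8, 15.2, 15.4 and 10.5 RPKM. For Tekt4 KO-Sal 12 fell among the wildtypes, and for Tekt1 it was just above them. Neither passed with all libraries in (limma adjusted p = 0.114 and 0.0930), and both were called without KO-Sal 12 (0.0150 and 0.00613).

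**Figure D2:**
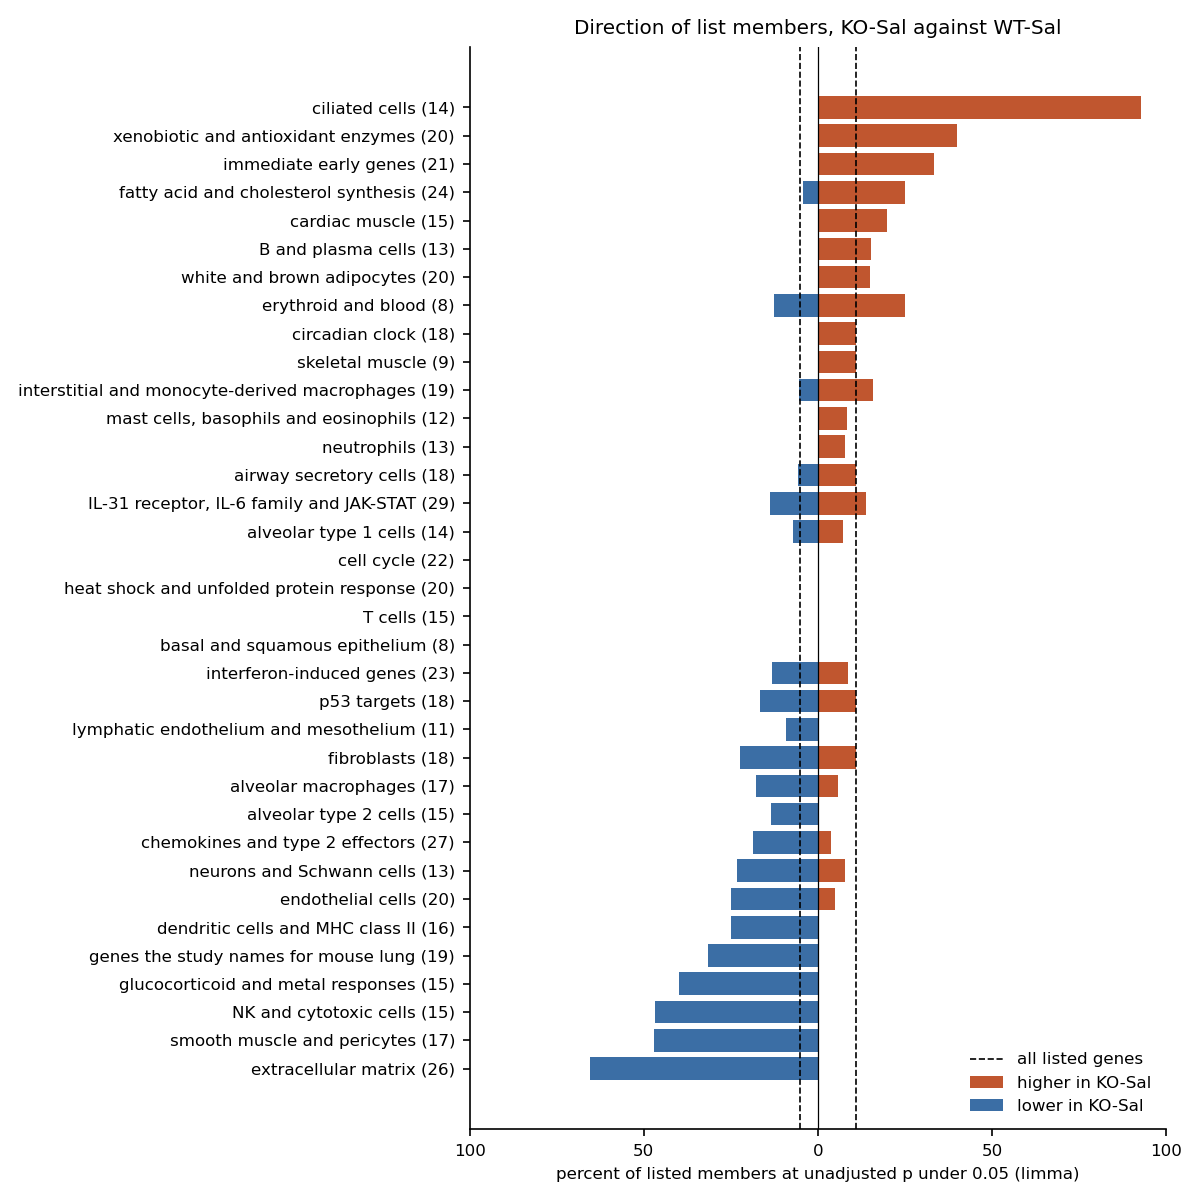
Percent of the members of each of 35 gene lists at an unadjusted p under 0.05, higher (right, orange) or lower (left, blue) in KO-Sal, with the number of measured members in brackets and the same percent over all genes as dashed lines (11% and 5.19%). Ciliated cells (13 of 14) and extracellular matrix (17 of 26) lie at the ends.

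Genes of the extracellular matrix were lower in KO-Sal. Collagens, elastin and fibrillin form the fibres of the lung, and lysyl oxidases cross-link them. Of 26 listed genes, all measured, 0 were higher and 17 lower at an unadjusted p under 0.05 (5.19% of all genes lower), 12 lay below every wildtype library (3.42% of all genes), and the median log2 difference was -0.35. None was called by limma with all libraries in, while limma-voom called 4 (Mmp2, Loxl2, Sparc and Col5a2). Without KO-Sal 12, limma called 18, all lower (1.15% of all genes), and the median was -0.46. The list includes genes that the study measured in these lungs for fibrosis, such as Col1a1 and Col3a1. Eln, elastin, was at 68.8, 64.6, 81.1 and 78.1 RPKM in WT-Sal and 19.1, 33.0, 26.1 and 56.96 in KO-Sal (-1.20 ± 0.28, limma adjusted p = 0.0951, and 0.00374 without KO-Sal 12). Col3a1, type III collagen, was at 165, 150, 181 and 142 against 75.2, 80.4, 66.2 and 124 RPKM (-0.91 ± 0.17, limma adjusted p = 0.0678, and 0.00247 without KO-Sal 12). In both genes KO-Sal 12 was the highest knockout and still below every wildtype library.

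Mmp2, a gelatinase, had the smallest p of the list. It was at 51.9, 38.8, 44.4 and 42.3 RPKM in WT-Sal and 26.6, 21.0, 24.6 and 31.1 in KO-Sal (-0.76 ± 0.12, limma adjusted p = 0.0609). Sparc, a matricellular protein, was at 618, 507, 604 and 545 against 385, 370, 386 and 442 RPKM (-0.52 ± 0.09, limma adjusted p = 0.0609). The cross-linking enzyme Loxl2 was at 12.1, 11.2, 12.4 and 10.6 against 7.60, 8.09, 6.45 and 8.64 RPKM (-0.54 ± 0.09, limma adjusted p = 0.0609). KO-Sal 12 was the nearest to wildtype in all of these and overlapped in none. Lox (-0.83 ± 0.17), Col5a2 (-0.59 ± 0.12) and Fbn1 (-0.60 ± 0.14) were also without overlap. Col1a1, type I collagen, was at 34.3, 37.4, 36.4 and 38.6 RPKM in WT-Sal and 28.7, 24.8, 24.8 and 40.2 in KO-Sal, so that KO-Sal 12 was the highest of the 8 (-0.33 ± 0.13, limma adjusted p = 0.247, and 0.00859 without KO-Sal 12). Fn1, fibronectin, was at 38.9 to 42.5 RPKM in WT-Sal and 39.5, 31.0, 28.9 and 44.98 in KO-Sal. The mean level of the 26 genes was 4.90 to 4.99 (log2) in WT-Sal, 4.39 to 4.46 in KO-Sal 9, 10 and 11 and 4.81 in KO-Sal 12. Leaving out KO-Sal 9 and 10 together, 13 of 26 stayed lower at an unadjusted p under 0.05, beside 515 of all 16380 genes.

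**Figure D3:**
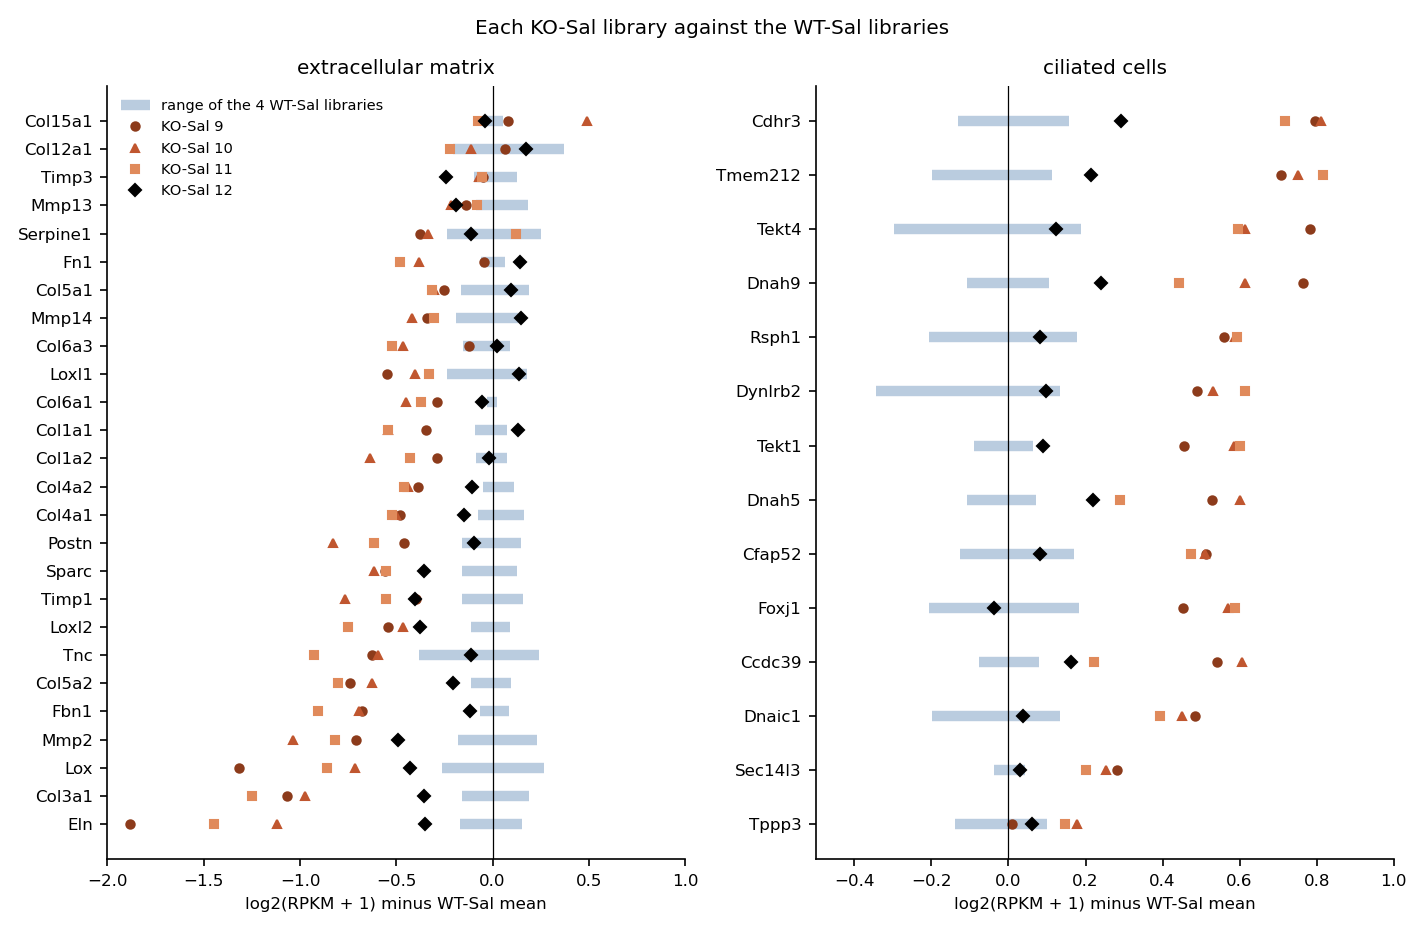
Difference of each KO-Sal library from the WT-Sal mean, in log2(RPKM + 1), for 26 extracellular matrix genes and 14 ciliated cell genes, ordered by the KO-Sal mean, with the range of the 4 WT-Sal libraries as a bar. KO-Sal 12 (black diamonds) is nearest to or inside the wildtype range for most genes, as for Col1a1 at 40.2 RPKM and Foxj1 at 24.3 RPKM.

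Markers of the cells that make or contain this matrix were less uniform. At an unadjusted p under 0.05, beside 11% of all genes higher and 5.19% lower, 2 of 18 fibroblast markers were higher and 4 lower. Of 17 smooth muscle and pericyte markers 0 were higher and 8 lower, with a median of -0.27. Actg2 (-0.50 ± 0.12) and Cnn1 (-0.42 ± 0.11), contractile genes of smooth muscle, led these (limma adjusted p = 0.0888 and 0.102). The mean level of the smooth muscle list was 3.26 in KO-Sal 10 against 3.56 to 3.67 in the other knockouts and 3.61 to 3.83 in WT-Sal. Without KO-Sal 10 the median of this list was -0.14, with 1 higher and 7 lower, beside 843 of all 16380 genes lower. Of 20 endothelial markers 1 was higher and 5 lower. Among the 19 genes that the study names for mouse lung, 0 were higher and 6 lower. Timp1, which blocks matrix metalloproteases, stood at 5.92, 5.19, 5.22 and 4.56 RPKM against 3.70, 2.65, 3.22 and 3.68 (-0.53 ± 0.10, limma adjusted p = 0.0678). Calcb, a calcitonin gene-related peptide, was at 1.55 to 3.97 RPKM in WT-Sal and 1.11 to 1.95 in KO-Sal, which overlap. Inflammatory and squamous genes on that list were near their floor in both genotypes: Il6 was at 0.124 to 0.355 RPKM in WT-Sal and 0.140 to 0.420 in KO-Sal, and Krt5, a basal cell keratin, at 0.0586 to 0.159 and 0.0588 to 0.232. The chemokine Ccl2 was at 0.777 to 1.75 and 0.946 to 1.67 RPKM. The study drew these genes mainly from its bleomycin lungs, so they are not independent evidence of a direction there.

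A list of genes that respond to glucocorticoids or metals leaned lower in KO-Sal, with all 15 log2 differences negative. Genes that respond mainly to metals are not shown separately, so no result is given for metals alone. Of 15 listed, 0 were higher and 6 lower at an unadjusted p under 0.05 (5.19% of all genes lower). Below every wildtype library lay 5 (3.42% of all genes), and the median was -0.36. Here KO-Sal 12 did not stand back: the mean level was 4.91 to 5.30 (log2) in WT-Sal and 4.17, 4.80, 4.72 and 4.52 in KO-Sal 9, 10, 11 and 12. Angptl4, an inhibitor of lipoprotein lipase, was at 35.7, 28.8, 35.6 and 37.2 RPKM in WT-Sal and 4.18, 16.99, 11.8 and 14.1 in KO-Sal (-1.60 ± 0.36, limma adjusted p = 0.0943). Zbtb16, a transcription factor strongly induced by glucocorticoids, was at 37.5, 44.2, 49.3 and 31.2 against 9.08, 28.2, 25.6 and 4.54 RPKM (-1.51 ± 0.53, limma adjusted p = 0.222). The knockouts of this gene split widely, with KO-Sal 9 and 12 lowest.

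Hif3a (-0.57 ± 0.10, limma adjusted p = 0.0637) and Klf9 (-0.40 ± 0.09, limma adjusted p = 0.0765) were tighter and were called by limma-voom. Klf9, a steroid-induced transcription factor, was at 78.9, 77.7, 91.0 and 83.3 RPKM against 52.7, 66.2, 68.0 and 63.7. Cdkn1a, a cell cycle inhibitor, was at 61.8, 66.4, 96.1 and 63.3 against 27.5, 52.7, 42.0 and 47.2 RPKM (-0.76 ± 0.20, limma adjusted p = 0.111), with WT-Sal 3, the library high in neutrophil markers, at the top. Fkbp5, a chaperone of the glucocorticoid receptor, was at 22.2, 14.4, 33.7 and 15.5 against 7.73, 15.7, 11.4 and 7.88 RPKM and overlapped through KO-Sal 10. Immediate early genes, which respond within minutes to handling and stimulation, moved the other way. At an unadjusted p under 0.05, 7 of 21 were higher (11% of all genes) and 0 lower. The median was 0.29, and 0 were without overlap (9.66% of all genes). Junb was at 16.7, 21.3, 24.2 and 17.2 RPKM in WT-Sal and 35.8, 26.3, 34.7 and 23.4 in KO-Sal (0.57 ± 0.15, limma adjusted p = 0.105). Ier2 was 0.47 ± 0.14 higher (limma adjusted p = 0.137). Without KO-Sal 10 the count of immediate early genes was 13 of 21 (16.4% of all genes in either direction). No source used here gives the time or order of collection.

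Among immune cells, natural killer markers were lower. Of 15 NK and cytotoxic genes 0 were higher and 7 lower at an unadjusted p under 0.05 (5.19% of all genes lower). Below every wildtype library lay 5 (3.42% of all genes), and the median was -0.30. Klra7, an inhibitory receptor of NK cells, was at 2.06, 2.27, 2.02 and 2.51 RPKM in WT-Sal and 1.41, 1.28, 1.03 and 1.503 in KO-Sal (-0.48 ± 0.09, limma adjusted p = 0.0678). Klrb1c, which encodes NK1.1, was at 3.42, 2.80, 3.72 and 3.24 against 2.21, 1.5, 1.18 and 2.41 RPKM (-0.62 ± 0.14, limma adjusted p = 0.0815). The list was lowest in KO-Sal 10, at a mean level of 1.93 against 2.24 to 2.39 in the other knockouts and 2.35 to 2.55 in WT-Sal. Without KO-Sal 10 its median was -0.17, with 1 higher and 6 lower, beside 843 of all 16380 genes lower. T cell markers gave 0 of 15 in either direction.

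Of 13 measured B and plasma cell genes, 2 were higher and 0 lower at an unadjusted p under 0.05, beside 11% of all genes higher, and the median was 0.10. Both, Jchain and Mzb1, are of plasma cells and were high in 3 of the 4 knockouts. Mzb1, a chaperone of antibody secretion, was at 2.55, 1.996, 3.62 and 2.96 RPKM in WT-Sal and 5.60, 7.45, 11.01 and 3.11 in KO-Sal (0.95 ± 0.28, limma adjusted p = 0.145, and 0.0128 without KO-Sal 12). Prg2, the major basic protein of eosinophils, was at 0.153, 0.0830, 0.406 and 0 RPKM in WT-Sal and 1.41, 1.75, 1.61 and 0.0700 in KO-Sal, that is 0 to 8 reads against 21, 25, 21 and 1. Clca1, a protein of mucous airway cells, was the reverse in the same libraries: 3.19, 3.37, 4.004 and 2.04 RPKM against 0.941, 0.700, 0.263 and 3.58 (-0.97 ± 0.35, limma adjusted p = 0.220, and 0.00712 without KO-Sal 12). Prg2 and Clca1 were picked after their values were seen. Prg2 was the only 1 of 12 measured mast cell, basophil and eosinophil markers higher at an unadjusted p under 0.05, and 0 were lower. Of these 12, 5 differences were positive and 7 negative (median -0.01). Alveolar macrophage markers gave 1 higher and 3 lower of 17, beside 11% of all genes higher and 5.19% lower. Fabp1, a fatty acid binding protein that mouse alveolar macrophages express, was at 20.1, 17.2, 16.4 and 19.3 RPKM against 10.3, 10.5, 10.9 and 14.2 (-0.64 ± 0.10, limma adjusted p = 0.0609).

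Enzymes that handle foreign compounds and oxidants were higher in the same 3 knockouts. Of 20 measured, 8 were higher (11% of all genes) and 0 lower at an unadjusted p under 0.05, with a median of 0.19. Without KO-Sal 12 limma called 7, all higher (3.26% of all genes). Cyp2a5, a cytochrome P450, was at 11.9, 15.9, 15.05 and 11.4 RPKM in WT-Sal and 33.7, 27.6, 41.7 and 9.03 in KO-Sal, where KO-Sal 12 was below every wildtype library (0.83 ± 0.43, limma adjusted p = 0.395, and 0.00491 without it). Gpx2, a glutathione peroxidase of epithelium, was 0.46 ± 0.12 higher (limma adjusted p = 0.111), and Txnrd1, a thioredoxin reductase, 0.27 ± 0.07 (limma adjusted p = 0.102). Without KO-Sal 10, 4 of the 20 stayed higher at an unadjusted p under 0.05, beside 1849 of all 16380 genes. Without KO-Sal 9 and 10 together 1 of the 20 did, beside 1179 of all 16380 genes. With both left out, the list therefore did not stand above all genes.

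Adipocyte and skeletal muscle genes were highest in 1 knockout library each. Adipoq, the adipocyte hormone adiponectin, was at 5.83, 9.26, 7.91 and 7.88 RPKM in WT-Sal and 8.42, 81.4, 9.40 and 11.9 in KO-Sal. Cfd, adipsin, was at 24.8, 42.9, 36.7 and 33.9 against 38.5, 324, 57.7 and 55.9 RPKM, and Plin1, the coat protein of lipid droplets, at 0.987, 2.14, 2.07 and 2.28 against 2.92, 23.5, 3.40 and 3.82. Ucp1 is not listed. KO-Sal 10 was far above all others in each. Of the other knockouts, all were above every wildtype library for Plin1, KO-Sal 11 and 12 for Adipoq and Cfd, and KO-Sal 9 was within the wildtype range for Adipoq and Cfd. With KO-Sal 10 the 20 adipocyte genes had a median of 0.69 with 3 higher at an unadjusted p under 0.05 (11% of all genes). Without it the median was 0.30 with 12 higher and 2 lower (16.4% of all genes in either direction). Slc36a2, an amino acid transporter of fat, was at 9.82, 10.5, 10.001 and 12.8 RPKM against 14.1, 17.7, 13.7 and 14.8 (0.45 ± 0.10, limma adjusted p = 0.0768). Thrsp, a factor of lipid synthesis, was at 5.47, 4.99, 10.1 and 6.94 against 19.7, 141, 15.9 and 17.04 RPKM, with all knockouts above the wildtypes also without KO-Sal 10 (1.27, limma adjusted p = 0.0531).

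Fatty acid and cholesterol synthesis gave 6 higher and 1 lower of 24, beside 11% of all genes higher and 5.19% lower. Srebf1, its main transcription factor, was 0.31 ± 0.07 higher (limma adjusted p = 0.0821). Acta1, skeletal muscle actin, was at 0.0817 to 0.407 RPKM in WT-Sal and 20.4, 0.336, 0.491 and 0.261 in KO-Sal, so that KO-Sal 9 alone was high, and Ckm, muscle creatine kinase, was at 9.56 in that library against 0.998 to 4.31 in the other 7. Cardiac muscle genes mark the muscle sleeve of mouse pulmonary veins or attached heart. Their mean level was 2.70 to 3.43 in WT-Sal and 3.69, 2.97, 3.36 and 3.93 in KO-Sal 9, 10, 11 and 12. At an unadjusted p under 0.05, 3 of 15 were higher (11% of all genes), and 8 without KO-Sal 10 (16.4% of all genes in either direction). Sln, sarcolipin, was at 6.42, 9.498, 8.93 and 6.16 RPKM against 19.6, 10.04, 13.98 and 18.7 (0.90 ± 0.20, limma adjusted p = 0.0824). Their part in other differences was not tested.

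**Figure D4:**
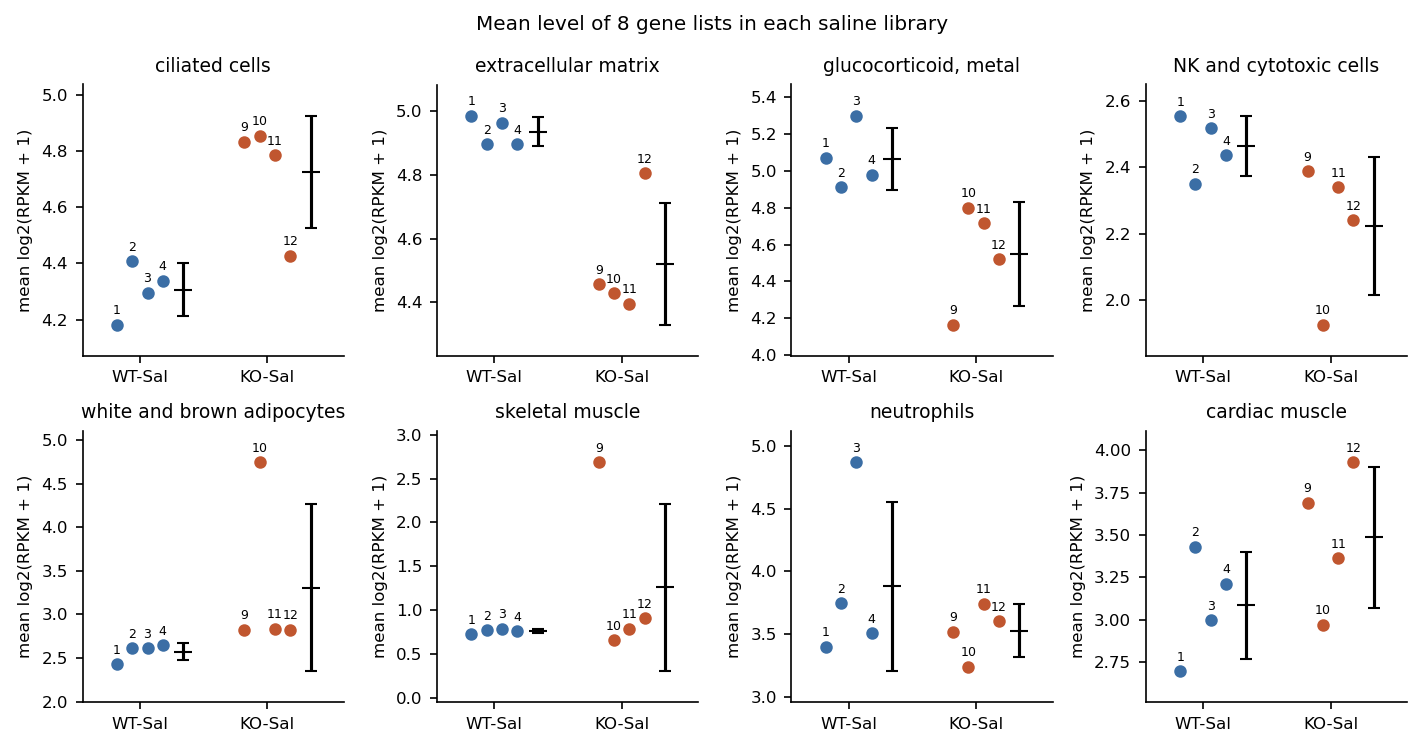
Mean log2(RPKM + 1) over the members of 8 gene lists in each library (points with replicate numbers), with the mean and SD of 4 libraries (black); the axes do not start at 0. KO-Sal 12 stands back in ciliated and matrix genes, KO-Sal 10 is high in adipocyte genes (4.74), KO-Sal 9 in skeletal muscle genes (2.69) and WT-Sal 3 in neutrophil genes (4.87).

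A further group of transcripts, picked after the values were seen, differed in all 4 knockouts with KO-Sal 12 among them. Mir99a, a microRNA gene, was at 1.97, 1.07, 1.31 and 3.18 RPKM in WT-Sal and 8.67, 6.32, 4.95 and 8.12 in KO-Sal, on 1 to 2 reads against 5 to 10 (1.503 ± 0.22, limma adjusted p = 0.0578). Snord35a, a small nucleolar RNA, was at 0, 0.782, 1.91 and 0 against 3.80, 3.96, 5.06 and 4.61 RPKM, on 0 to 4 reads against 6 to 7. Such counts are too few to give a size. Pisd-ps1, a pseudogene of phosphatidylserine decarboxylase on chromosome 11, had many more reads and was at 40.6, 57.02, 27.8 and 49.3 RPKM against 106, 86.2, 99.5 and 81.1 (1.11 ± 0.19, limma adjusted p = 0.0637). It shares sequence with other copies, so its reads cannot be placed with certainty. Tbata, a gene of thymus and testis, was at 0.439, 1.03, 0.842 and 0.904 against 2.40, 2.28, 2.20 and 1.63 RPKM (0.80 ± 0.12, limma adjusted p = 0.0609), and Slc6a20a, an amino acid transporter, at 0.881, 0.992, 0.967 and 1.47 against 3.48, 3.22, 3.97 and 1.70 (0.95 ± 0.18, limma adjusted p = 0.0678). At an unadjusted p under 0.05, beside 11% of all genes higher and 5.19% lower, 36 small nucleolar RNA genes gave 2 higher and 1 lower. Of 33 microRNA genes 5 were higher and 0 lower.

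On chromosome 13, 77 listed genes lie within 10 Mb of Il31ra, itself included. Of these, 12 were lower and 3 higher at an unadjusted p under 0.05, beside 5.19% and 11% of all genes. Of the same 77, 9 lay below every wildtype library, beside 3.42% of all genes. Limma called 0 of them and limma-voom 2, Tmem267 and Ccl28 (adjusted p = 0.0475 and 0.0459). Tmem267, 6.91 Mb from Il31ra, was at 6.58, 7.22, 5.86 and 6.49 RPKM in WT-Sal and 4.69, 1.25, 1.59 and 2.08 in KO-Sal (-1.24 ± 0.24, limma adjusted p = 0.0678), and the chemokine Ccl28, 7.04 Mb away, was at 0.549, 1.06, 0.604 and 1.30 against 0.286, 0.188, 0.0688 and 0.251 RPKM (-0.63 ± 0.13, limma adjusted p = 0.0678). Esm1, a secreted proteoglycan of endothelium 0.629 Mb away, was at 10.98, 13.4, 10.002 and 9.58 RPKM against 3.78, 4.77, 6.67 and 11.3, and overlapped only through KO-Sal 12. Of the 77, 4 genes were below every wildtype library of the same agent under saline and under bleomycin: Skiv2l2, Arl15, Fst and Tmem267.

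The genotypes were also compared after bleomycin, in 8 libraries that share none with the saline comparison. WT-Bleo 6 held 604134 reads and KO-Bleo 15 held 1234594, against 12695434 to 32153698 in the other 6, so values are also given without these shallow libraries. Il31ra did not separate the genotypes there, at 0.111 ± 0.0863 RPKM in WT-Bleo and 0.171 ± 0.182 in KO-Bleo (SD, n = 4 each). Its log2 difference was 0.07 with all 8 libraries and -0.09 without the shallow ones (limma unadjusted p = 0.579 and 0.176). Directions below are therefore those of the libraries labelled knockout. There 35 genes were called (0.214%) and 8.48% of all genes were without overlap. All 8 genes called under saline had the same sign there. Erdr1 was at 10.3 ± 4.24 RPKM in WT-Bleo and 0.750 ± 0.734 in KO-Bleo (SD, n = 4 each), a log2 difference of -2.70 (limma unadjusted p = 1.09e-05), and Hist1h4h at 2.12 ± 1.49 and 6.38 ± 3.10 RPKM (1.30, limma unadjusted p = 0.0317). The other called genes had unadjusted p-values from 0.0646 (Kcnh3) to 0.900 (Rmrp), beside 11.1% of all genes at an unadjusted p under 0.05 after bleomycin. Without the shallow libraries 95 genes were called (0.58%), Erdr1 (-3.07, limma adjusted p = 0.00893), Hist1h4h (1.22, limma adjusted p = 0.00991) and Rmrp (1.06, limma adjusted p = 0.0148) among them. With all 8 libraries Rras2 differed by -0.17, Crispld2 by -0.24, Mettl21e by -0.37 and Gprc6a by -0.30. The difference between the agents was not called for any of the 8 (interaction, limma adjusted p from 0.324 for Rras2 to 0.848 for Rmrp), while 36 genes (0.22%) passed that test over all genes. Without the shallow libraries it was called for Gprc6a (limma adjusted p = 0.0418) among 27 genes (0.165%).

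Of the 141 genes at the study's thresholds under saline, 107 had the same sign after bleomycin, 38 of them at an unadjusted p under 0.05, and 4 had the opposite sign at that level (111, 44 and 5 without the shallow libraries, where 13.8% of all genes were at that level). Over all 16380 genes, 8808 had the same sign with all bleomycin libraries in. Of these, 1137 were at an unadjusted p under 0.05, and 688 genes had the opposite sign at that level. Without the shallow libraries these counts over all genes were 8924, 1392 and 868. Among the 722 genes called without KO-Sal 12, 504 had the same sign, 123 of them at an unadjusted p under 0.05 and 21 with the opposite sign at that level. The matrix list kept its direction, with 22 of 26 lower at an unadjusted p under 0.05 after bleomycin (6.36% of all genes), and 19 without the shallow libraries (7.84%). Eln was at 208 RPKM in WT-Bleo and 108 in KO-Bleo, and Lox at 50.9 and 27.5. Mmp2 was at 103 RPKM in WT-Bleo and 106 in KO-Bleo (0.04, limma unadjusted p = 0.694). The ciliated list did not keep its count, with 2 of 14 higher with all 8 libraries (4.79% of all genes) and without the shallow ones (5.95%) and a median of 0.14, and Cdhr3 was at 22.6 and 22.8 RPKM. The interaction was not called for Cdhr3 (limma adjusted p = 0.289) or Mmp2 (0.0645). Clca1 turned, at 34.05 RPKM in WT-Bleo and 124 in KO-Bleo, with an interaction that did not pass (limma adjusted p = 0.0789). With all 8 libraries, immediate early genes turned too, with 0 of 21 higher and 8 lower at an unadjusted p under 0.05 (6.36% of all genes lower). Junb differed by -0.56, and its interaction did not pass (limma adjusted p = 0.0593). The NK and cytotoxic list had a median of 0.49, with 4 of 15 higher and 1 lower (4.79% of all genes higher).

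**Figure D5:**
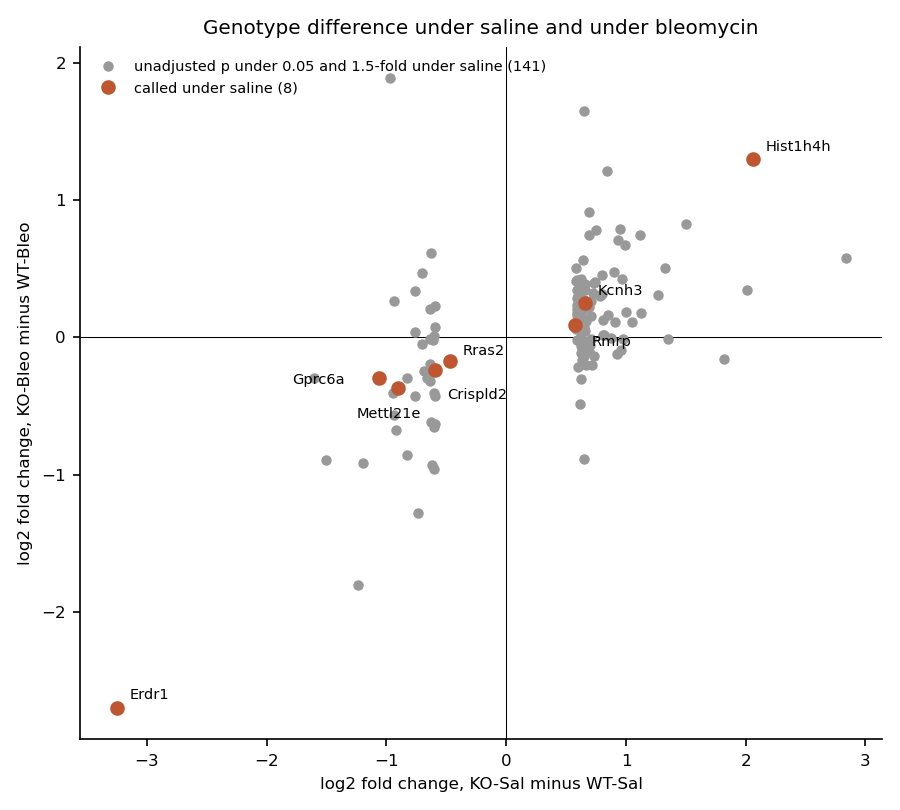
Log2 fold change of knockout against wildtype lungs under saline (horizontal) and under bleomycin (vertical) for the 141 genes at the study's thresholds under saline (grey) and the 8 called genes (orange). With all bleomycin libraries in, all 8 called genes have the same sign on both axes and lie nearer to 0 after bleomycin. Erdr1 is at -3.25 and -2.70 and Hist1h4h at 2.06 and 1.30. Without WT-Bleo 6 and KO-Bleo 15, Rmrp is farther from 0 after bleomycin, at 1.06 against 0.58 under saline. The 8 genes were chosen by their saline differences, so these positions do not measure an effect of bleomycin.

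The remaining groups are given by their counts. Cell cycle genes gave 0 of 22, heat shock and unfolded protein response genes 0 of 20 and basal and squamous epithelial markers 0 of 8 at an unadjusted p under 0.05. Alveolar type 2 markers gave 0 higher and 2 lower of 15 (5.19% of all genes lower). Without KO-Sal 10, 5 of these 15 were lower, beside 843 of all 16380 genes. Sftpc, surfactant protein C, was at 16026 to 19466 RPKM in WT-Sal and 14295 to 17191 in KO-Sal. The genotype difference of Sftpc, chosen after its values were seen, was -0.11 under saline and 0.49 under bleomycin (interaction, limma adjusted p = 0.0369, and 0.108 without the shallow libraries). Alveolar type 1 markers gave 1 higher and 1 lower of 14. Interferon-induced genes gave 2 higher and 3 lower of 23, circadian clock genes 2 higher and 0 lower of 18, and chemokines and type 2 effectors 1 higher and 5 lower of 27, beside 5.19% of all genes lower. Neutrophil genes gave 1 higher and 0 lower of 13, with S100a8 at 340 RPKM in WT-Sal 3 against 36.5 to 85.5 in the other 7 libraries.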

How the data were processed

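RNA from whole mouse lungs was sequenced in 16 libraries, 4 per genotype and agent. The authors deposited 1 table of normalised values per gene, read here as RPKM because nearly all values are whole multiples of what 1 read is worth (16366 of 16380 genes); the table does not name its unit. The submitters' processing notes list the tools TopHat, DESeq, bcl2fastq and CASAVA 1.8 and the build mm10, with no parameters. No column of values was left out (0), and the authors' own comparisons were not used. Gene positions came from RefSeq GRCm38.p6, matched by gene ID for 16363 genes.

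Values were tested as log2(RPKM + 1) in limma 3.58.1 (trend, robust, R 4.3.3) with Benjamini-Hochberg adjustment over all 16380 genes, so a fold change understates low genes. A gene was called at an adjusted p under 0.05. Percentages of genes past a threshold are over all genes. Two-sided exact permutation of 4 against 4 cannot go below p = 0.0286. Whole reads were recovered for depths, for Il31ra and for limma-voom. Scripts were tested on simulated data. Figures were drawn with matplotlib 3.10.9 in Python 3.11.15.

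The comparison and its 35 gene lists were chosen with earlier results of these data known. Named genes were the receptor chains, all called genes, Tmem267 and Esm1, up to 4 members with the smallest p of each list described, adipocyte markers and the genes the study names for mouse lung. Other genes were chosen after their values were seen, among them Foxj1, Tekt1, Tekt4, Eln, Lox, Col5a2, Fbn1, Fkbp5, Zbtb16, Cyp2a5, Scgb1a1, Skiv2l2, Arl15, Fst, Slc6a20a and Sftpc. Alternatives were other pseudocounts (0.1 and 5), filters, scaling, library weights, limma-voom, all 16 libraries in 1 fit, and leaving out libraries.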

Additional observations from a re-analysis of the deposited data

Results flagged for a closer look

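In each group of 4 libraries, a library was singled out where its gap to the nearest other took up most of the range of the group (Dixon's test at 95%). Of 182 groups tested, for named genes and list levels, 20 were past the critical value, where chance gives about 1 in 20 for independent groups. Some genes and lists were named because a library stood apart in them, and lists hold named genes. The groups are therefore no chance sample, and 20 of 182 cannot be weighed against 1 in 20. KO-Sal 12 accounts for 6, KO-Sal 10 for 5, WT-Sal 1 for 4, KO-Sal 9 and WT-Sal 3 for 2 each and KO-Sal 11 for 1.

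KO-Sal 12 was high for Gprc6a (1.23 RPKM, next 0.533), Calcb (1.95, next 1.22) and Fabp1 (14.2, next 10.9), and low for Jchain (6.11, next 79.1). Its mean level was 4.43 for ciliated cell genes (next 4.78) and 4.81 for extracellular matrix genes (next 4.46).

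KO-Sal 10 was high for Adipoq (81.4 RPKM, next 11.9), Cfd (324, next 57.7), Plin1 (23.5, next 3.82), Thrsp (141, next 19.7) and the adipocyte list (4.74, next 2.84). KO-Sal 9 was high for Acta1 (20.4 RPKM, next 0.491) and the skeletal muscle list (2.69, next 0.91). KO-Sal 11 was high for Rras2, at 32.8 RPKM with the next at 31.4.

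WT-Sal 3 was high for S100a8 (340 RPKM, next 81.1) and Cdkn1a (96.1, next 66.4). WT-Sal 1 was low for Plin1 (0.987 RPKM, next 2.07), Ckm (0.998, next 2.02), Arl15 (17.6, next 20.3) and the adipocyte list (2.43, next 2.61).

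The genotype difference of Sftpc, surfactant protein C, differed between the agents by -0.60 on the log2 scale (saline minus bleomycin, interaction, limma adjusted p = 0.0369, and 0.108 without the shallow libraries WT-Bleo 6 and KO-Bleo 15).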

How the results depend on the processing

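The number of genes called in KO-Sal against WT-Sal was 8 and moved to 17 with genes of a mean log2 level of at least 1, 40 with at least 10 reads in every library, 117 by limma-voom, 69 with all 16 libraries in 1 fit, 176 with library weights, and 4 without KO-Sal 9 and KO-Sal 10 together. Leaving out each library in turn gave 3 to 722 (3 without WT-Sal 1, 5 without KO-Sal 11, 722 without KO-Sal 12). The count of genes at the study thresholds in KO-Sal against WT-Sal, 141, became 629 with a pseudocount of 0.1, 27 with 5 and 707 by limma-voom, and 102 to 280 with each library left out, 280 being without KO-Sal 12. Of the called genes, 2 kept their sign at an unadjusted p under 0.05 after bleomycin, 1 with a pseudocount of 0.1, 5 with all 16 libraries in 1 fit and 4 without the shallow WT-Bleo 6 and KO-Bleo 15. The interaction passed for 1 named gene, Sftpc, for 0 with a pseudocount of 5, and for Gprc6a in place of Sftpc without the shallow libraries. The causes were not tested, apart from the fewer genes or libraries that a filter or an omission leaves.

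Among 79 named genes 2, both near 0, changed direction. The log2 fold change of Il6 (0.0351) ranged from -0.0258 (without KO-Sal 12) to 0.0855 (without WT-Sal 3) with each library left out, and was -0.00437 without WT-Sal 2, and the log2 fold change of Krt5 (0.0379) became -0.0249 without KO-Sal 9 and 10 together. Of the 71 not called, 44 were called under at least 1. Erdr1 and Hist1h4h were called in 16 of 16 alternatives that kept them, Mettl21e in 16 of 17, Rras2 in 15, Crispld2 in 11, Rmrp in 9 and Gprc6a in 8 of 17, and Kcnh3 in 8 of 16. Leaving out KO-Sal 9 and 10 together, counting lists without KO-Sal 12, leaving out the shallow libraries, and library totals in limma-voom were chosen after seeing the data. Tests by edgeR and DESeq2 and TMM scaling in limma-voom were planned and were not run, since the deposited values are RPKM. No paired analysis was possible because the genotypes share no replicate numbers. Depth limits genes with few reads, such as Il31ra with 10 to 37 reads per group.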
